A study of Mus musculus with 4 samples.

Results

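Apolipoproteins and the proteins that load, remodel and take up lipoproteins were examined in cells of the mouse inner ear grown in primary culture. The set held 9 genes, chosen by symbol out of 24346 in each file: Apoe, Apoc1, Apod, Clu, Lpl, Pltp, Abca1, Abcg1 and Lrp1. RNA sequencing values (FPKM, fragment counts divided by transcript length and by sequencing depth) were deposited for 2 libraries of cultured vestibular cells and 2 of cultured cochlear cells, numbered 1 and 2 in each group and called V1, V2, C1 and C2 here. No genotype, treatment or time distinguishes the groups in the labels, and strain, age, sex, culture time and the number of animals behind a culture are not analysed here. Whether the libraries of a group are separate animals or cultures is not said, so errors and p-values cover the spread between these libraries, which may be technical. All 9 genes reached a mean of at least 1 FPKM and were tested.

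Lipids leave cells through membrane transporters and travel in particles that carry apolipoproteins. Abca1 passes cholesterol and phospholipid to poorly lipidated apolipoproteins, and Abcg1 adds sterol to particles already formed. Apolipoprotein E is the main carrier made by macrophages and glia and is a ligand of the receptor Lrp1. Lipoprotein lipase (Lpl) releases fatty acids from the particles and Pltp moves phospholipid between them. Several of these genes, among them Apoe, Abca1, Abcg1, Lpl and Pltp, are known targets of the oxysterol-sensing liver X receptors, LXR.

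The libraries held markers of several cell types, and C2 stood apart. The 17 macrophage markers summed to 9513 and 7204 FPKM in V1 and V2 and to 7459 in C1, but to 31.6 in C2, where 12 of the 17 lay below 1 FPKM. The lysozyme gene Lyz2 had 5103, 4245, 3902 and 10.3 FPKM in the same order. The 12 epithelial markers summed to 1070 and 114 FPKM in the vestibular and to 2100 and 2536 in the cochlear libraries, and the 12 fibroblast markers to 3390 and 6593 against 1587 and 1093. Of 8 hair cell markers, Myo7a and Myo6 reached a mean of 1 FPKM, and Otof, Pou4f3, Gfi1, Atoh1, Slc17a8 and Tmc1 did not. These are bulk values, so fewer cells of a type and less RNA per cell cannot be told apart.

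Promoter sequence was matched by symbol in RefSeq tables (GRCm38.p6) for 5 of the 9 genes, and not for Apoc1, Clu, Lpl and Abcg1. The 250 bases before the start site are shown for Apoe, Pltp and Abca1, as examples of a carrier, a transfer protein and an exporter with V1 highest and C2 lowest, 5′ to 3′ along the gene, with matches to searched motifs in capitals.
Apoe, chr7:19699189-19699438, minus strand: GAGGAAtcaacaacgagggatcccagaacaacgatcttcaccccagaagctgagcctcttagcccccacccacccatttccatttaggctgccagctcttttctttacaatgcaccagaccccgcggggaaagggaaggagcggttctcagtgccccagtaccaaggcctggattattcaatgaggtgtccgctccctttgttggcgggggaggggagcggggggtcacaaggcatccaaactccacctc
Pltp, chr2:164857709-164857958, minus strand: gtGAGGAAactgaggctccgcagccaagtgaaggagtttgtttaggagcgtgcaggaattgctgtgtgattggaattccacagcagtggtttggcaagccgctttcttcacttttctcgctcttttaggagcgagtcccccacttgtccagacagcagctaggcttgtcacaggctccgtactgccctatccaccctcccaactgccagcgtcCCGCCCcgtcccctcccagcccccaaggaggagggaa
Abca1, chr4:53159896-53160145, minus strand: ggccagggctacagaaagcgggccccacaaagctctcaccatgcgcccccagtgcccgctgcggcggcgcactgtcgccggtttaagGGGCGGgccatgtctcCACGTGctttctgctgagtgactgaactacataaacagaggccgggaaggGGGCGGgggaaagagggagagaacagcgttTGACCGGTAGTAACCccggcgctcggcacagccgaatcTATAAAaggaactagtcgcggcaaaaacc

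Both strands were searched, and a match describes letters and not a bound site. The Abca1 window held GGTTA and GGTCA separated by 5 bases, on the strand opposite to the gene and 67 to 53 bases before the start. This spacing and lettering was written from the LXR element known at ABCA1, so a match in this window could be foreseen. That 0.0457% of 32851 promoter windows held it does not make the match a finding. The Abca1 window also held TATAAA (12.4% of windows), CACGTG (6.02%) and GGGCGG in 2 places (32.7%). The Pltp window held GGGCGG on the opposite strand and GAGGAA, a core read by the macrophage factor PU.1 and other ETS factors (23.3% of windows). GAGGAA also opened the Apoe window, the one of the RefSeq start sites of Apoe that lies at the annotated gene start. AGGTCA (14% of windows), AGGTCA repeated after 4 bases (0.0152%), TCACNCCAC (1.05%) and TGANTCA (6.75%) were in none of the 3 windows. No motif overlapped another in them. Of the windows not shown, that before the Apoe start site at 19698398 held GAGGAA. The window before the Apoe start site at 19698621 held TATAAA on both strands. That of Lrp1, whose levels had the same library order, held GGGCGG on the opposite strand and no GAGGAA. That of Apod, whose levels had another order, held GAGGAA.

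The groups were compared with limma on log2(FPKM + 1) over all 13200 genes with a mean of at least 1 FPKM, and differences are vestibular minus cochlear of these log values. This scale shrinks differences of low genes. None of the 9 genes passed an adjusted p of 0.05 (smallest limma adjusted p 0.212, for Lrp1), where 0.0303% of all genes tested did. The estimates were above 0 for 8 of the 9 and below 0 for Clu, with a median of 0.93 against 0.01 over all genes tested. The vestibular pair lay wholly above the cochlear pair in 6 of 9 genes (26.9% of all genes tested), and below them in 1, Clu (28.4%). At an unadjusted limma p under 0.05, 2 of 9 were higher in vestibular cultures (Abcg1 and Lrp1, 7.61% of all genes) and 1 was higher in cochlear cultures (Clu, 10.6%). With each library left out in turn, the difference ran from 0.76 to 1.39 for Abcg1, 0.62 to 1.16 for Lrp1 and -1.66 to -0.82 for Clu. C2 was the lowest of the 4 libraries in 8 of the 9 genes, against 28.1% of all genes tested.

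Apoe, the apolipoprotein E gene, was the most abundant of the 9 in 3 of the 4 libraries. It had 7891 FPKM in V1, 7802 in V2, 5212 in C1 and 1581 in C2. The vestibular libraries were nearly equal and both above the cochlear libraries, which differed from each other 3.3-fold. In the vestibular libraries Apoe ranked as gene number 3 of 24346 and held 1.52% of all FPKM, in C1 it ranked as number 4 with 1.01%, and in C2 as number 17 with 0.33%. The group means were 7846 ± 63.1 and 3397 ± 2568 FPKM (SD, n = 2 each), a 2.31-fold difference. On the log2 scale the difference was 1.45 (SE 0.67, 95% interval -0.47 to 3.37, limma adjusted p 0.352). Without C2 it was 0.59.

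The level of Apoe that was measured with macrophage genes nearly absent was 1581 FPKM. Apoe over Lyz2 was 1.55, 1.84 and 1.336 in V1, V2 and C1, and 153 in C2. From C1 to C2 Lyz2 was 379-fold lower and the complement gene C1qb 1038-fold lower, while Apoe was 3.3-fold lower. Over the 17 macrophage markers the fall ran from 7.73-fold for Cd14 to 1305-fold for Mrc1, both named after their values were seen. The part of macrophages in the difference between the groups was not tested.

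**Figure D1:**
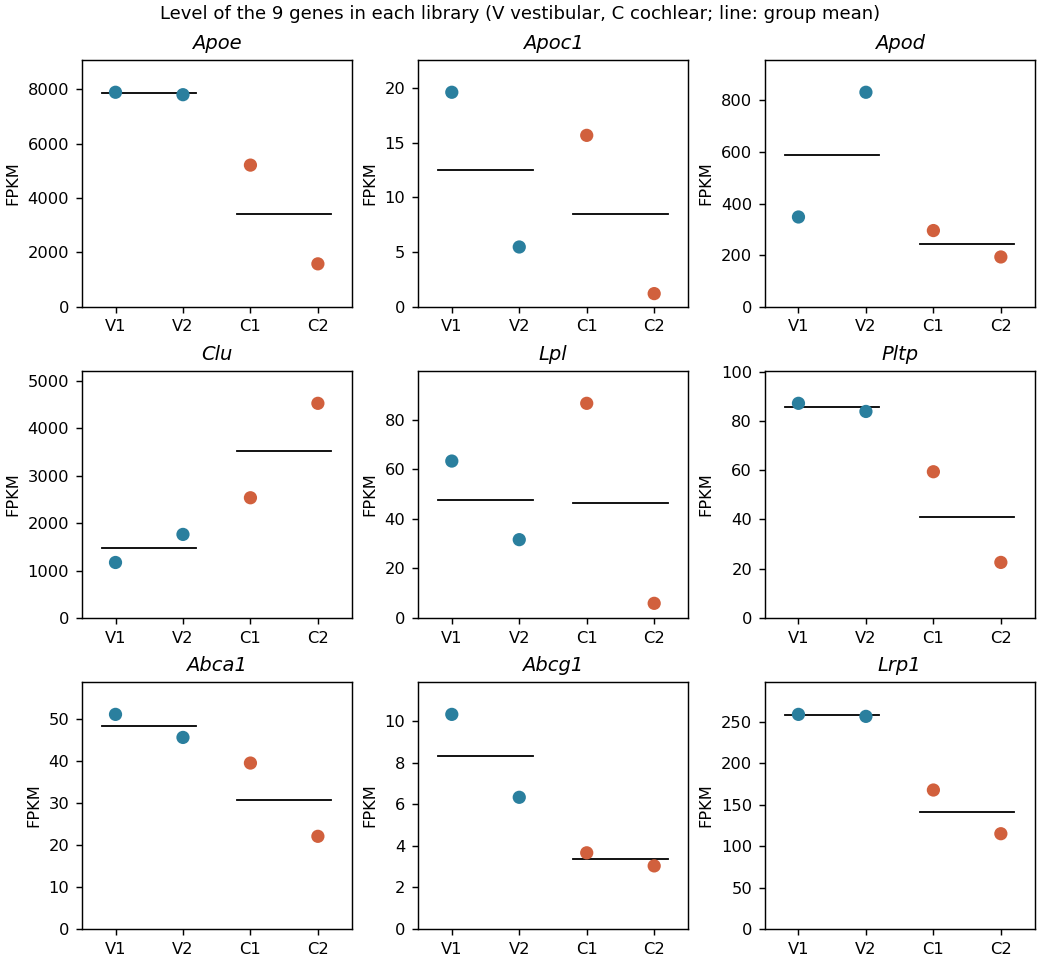
FPKM of the 9 genes (one panel each, linear axis from 0) in vestibular libraries V1 and V2 and cochlear libraries C1 and C2, with a line at each group mean. Apoe, Pltp, Abca1 and Lrp1 had vestibular libraries close together and C2 lowest, Clu had the opposite order of groups, and Apoc1 and Lpl overlapped between groups.

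Apoc1 encodes a small apolipoprotein that exchanges between particles and slows their uptake and lipolysis. It had 19.6 FPKM in V1, 5.47 in V2, 15.7 in C1 and 1.21 in C2. Values overlapped between groups, and the spread within a group (3.59-fold between vestibular and 13-fold between cochlear libraries) was larger than the difference of the means, which was 1.49-fold. Its log2 difference was 0.93 (SE 1.24, limma adjusted p 0.706), and without C2 it changed sign to -0.53. Apoc1 lies beside Apoe on chromosome 7 on the same strand, with 3448 bases between the genes (Apoc1 at 19689481 to 19692660, Apoe at 19696109 to 19699188, mm10). The levels differed all the same: Apoe over Apoc1 was 403 in V1, 1427 in V2, 333 in C1 and 1308 in C2.

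The other apolipoprotein genes of this cluster were far below Apoe. Apoc2, which had the library order of Apoc1 and whose product is the cofactor of lipoprotein lipase, had 50.01 and 15.9 FPKM in the vestibular libraries, 25.2 in C1 and was listed at 0 in C2. An annotated transcript unit, Gm44805, overlaps Apoc2 on the same strand, so its value is uncertain. Apoc4 was listed at 0 in 3 libraries and had 0.894 FPKM in C1. On the other side of Apoe, the mitochondrial import gene Tomm40 had 33.3, 24.03, 30.5 and 30.8 FPKM in V1, V2, C1 and C2.

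Apod (chromosome 16, 31296192 to 31314808, minus strand) encodes apolipoprotein D, a lipocalin that binds arachidonic acid and other small lipids. It had 348 FPKM in V1, 831 in V2, 296 in C1 and 193 in C2. V2 was high and the other 3 libraries lay within a narrower band, although the groups did not overlap. The means were 590 ± 342 and 244 ± 72.3 FPKM (SD, n = 2 each), with a log2 difference of 1.17 (SE 0.52, 95% interval -0.33 to 2.67, limma adjusted p 0.343). From V1 to V2 the log2 value of Apod differed by 1.25, the largest such positive difference among the 9 genes. The difference was 0.54 without V2 and 1.79 without V1. Of 12 fibroblast markers 7 were higher in V2 than in V1 and 5 were lower, with summed levels of 3390 and 6593 FPKM in V1 and V2. Chondrocyte markers summed to 769 and 4233 FPKM in these libraries and melanocyte markers to 11.5 and 233. The part of these cell types in the Apod values was not tested.

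Clu (chromosome 14, 65968483 to 65981547, plus strand) encodes clusterin, an extracellular chaperone that also travels on lipoproteins as apolipoprotein J. It had 1169 FPKM in V1, 1762 in V2, 2535 in C1 and 4528 in C2. Every cochlear library was above every vestibular library, and in C2 Clu ranked as number 1 of all 24346 genes. The means were 1465 ± 419 and 3532 ± 1409 FPKM (SD, n = 2 each), 2.41-fold higher in cochlear cultures. The log2 difference was -1.24 (SE 0.42, 95% interval -2.43 to -0.05, limma adjusted p 0.265), and it was -0.82 without C2. The ratio of Apoe to Clu was 6.75 and 4.43 in the vestibular libraries, 2.06 in C1 and 0.349 in C2. Epithelial markers were also higher in cochlear cultures, in 12 of 12 members by estimate, with 11 of the 12 lowest in V2. Clu was lowest in V1 instead, and its link to epithelial cells was not tested.

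Lpl (chromosome 8, 68880491 to 68907448, plus strand) encodes lipoprotein lipase, which is anchored on the vessel wall and is made by adipocytes, muscle and macrophages. It had 63.2 FPKM in V1, 31.5 in V2, 86.5 in C1 and 5.87 in C2. C1 was the highest and C2 the lowest of the 4, and the 14.7-fold gap between these cochlear libraries was the widest among the 9 genes for that pair. The means differed by less than this spread (47.4 ± 22.4 and 46.2 ± 57.0 FPKM, SD, n = 2 each). The log2 difference was 0.90 (SE 1.398, 95% interval -3.10 to 4.90, limma adjusted p 0.75), and -0.94 without C2. Of 7 adipocyte markers 3 were tested. All 3 were highest in C1, as Lpl was, but they differed in the vestibular libraries. Adipoq and Cfd were listed at 0 in both vestibular libraries. They had 4.15 and 4.38 FPKM in C1, and 0.0881 and 0 in C2. Fabp4 had 14.5 FPKM in V1, 9.35 in V2, 22.6 in C1 and 0.208 in C2. The remaining adipocyte markers did not reach a mean of 1 FPKM. The part of adipocytes in the Lpl values was not tested.

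Pltp, the phospholipid transfer protein gene, had 87.1 FPKM in V1, 83.8 in V2, 59.3 in C1 and 22.5 in C2. Both vestibular libraries were above both cochlear libraries, and C2 was the lowest. The log2 difference was 1.198 (SE 0.51, 95% interval -0.25 to 2.65, limma adjusted p 0.323), and 0.52 without C2. Pltp (chromosome 2, 164839518 to 164857711, minus strand) overlaps the lysosomal protease gene Ctsa of the other strand (207, 177, 203 and 117 FPKM in V1, V2, C1 and C2). Whether strand was used in counting is not stated, so part of either value could be shared.

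**Figure D2:**
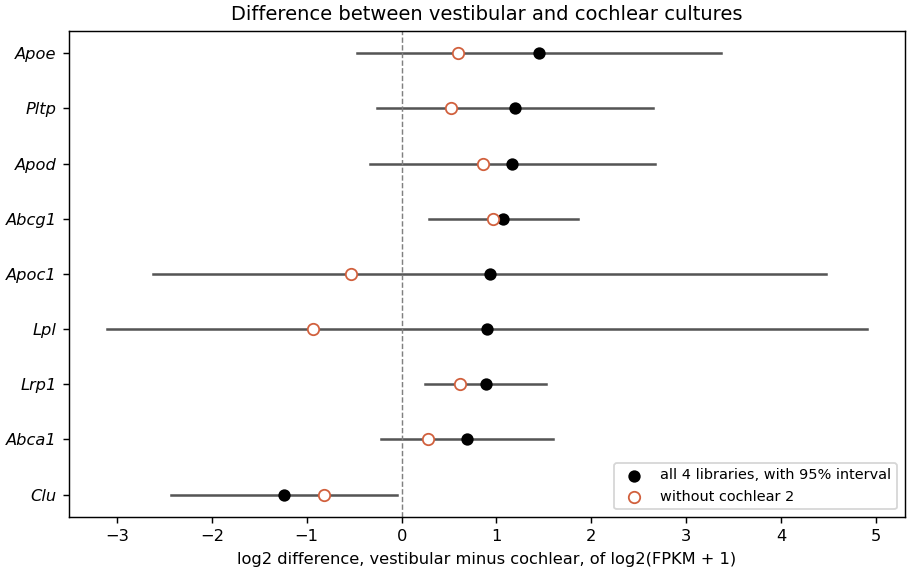
Log2 difference (vestibular minus cochlear, of log2(FPKM + 1)) for the 9 genes, with black points and 95% limma intervals from all 4 libraries and open points without C2. Intervals of Abcg1, Lrp1 and Clu exclude 0 before adjustment, and the open points of Apoc1 and Lpl lie below 0.

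The exporters differed in level and in how they varied. Abca1 lies on chromosome 4 (53030787 to 53159895, minus strand) and Abcg1 on chromosome 17 (31057675 to 31117988, plus strand), where an annotated small RNA gene, Gm25447, lies within it on the same strand. Abca1 had 51.1 FPKM in V1, 45.6 in V2, 39.5 in C1 and 22.1 in C2, so the groups did not overlap but V2 and C1 were close. Its log2 difference was 0.69 (SE 0.32, limma adjusted p 0.352), and 0.28 without C2. Abcg1 had 10.3 FPKM in V1, 6.34 in V2, 3.67 in C1 and 3.04 in C2. Here the cochlear libraries lay close to each other (1.21-fold apart) and both below the vestibular libraries. The Abcg1 difference was 1.07 (SE 0.27, 95% interval 0.29 to 1.86, limma adjusted p 0.215), and it was 0.97 without C2. Abca1 was 4.94 to 7.19 times as abundant as Abcg1 in the vestibular and 7.26 to 10.8 times in the cochlear libraries.

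Lrp1 (chromosome 10, 127538161 to 127621148, minus strand) encodes a large endocytic receptor that binds apolipoprotein E and many proteases. It had 259 FPKM in V1, 257 in V2, 168 in C1 and 115 in C2. The vestibular libraries differed 1.01-fold and lay above both cochlear libraries. The means were 258 ± 1.69 and 141 ± 37.3 FPKM (SD, n = 2 each), with a log2 difference of 0.89 (SE 0.22, 95% interval 0.25 to 1.53, limma adjusted p 0.212), and 0.62 without C2. Lrp1 holds an annotated antisense gene, Gm16217, on the other strand. Apoe over Lrp1 was 30.5, 30.4 and 31.1 in V1, V2 and C1, and 13.8 in C2.

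FPKM is scaled by transcript length, so levels can be set side by side between genes. In each library Apod was the third and Lrp1 the fourth most abundant of the 9 genes. Apoe led and Clu followed in V1, V2 and C1, and their places were exchanged in C2. Pltp, Lpl and Abca1 traded places between libraries within the range of 5.87 to 87.1 FPKM, and Apoc1 and Abcg1 were the lowest pair in every library.

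Library differences within a group separated the genes further. From V1 to V2 the log2 value of Apoe, Lrp1 and Pltp moved by -0.016, -0.013 and -0.055, that of Lpl and Apoc1 by -0.98 and -1.67, and that of Clu and Apod by 0.59 and 1.25. From C1 to C2 it moved by -3.67 for Lpl, -2.92 for Apoc1, -1.72 for Apoe, -1.36 for Pltp and -0.81 for Abca1, and by -0.21 for Abcg1 and 0.84 for Clu. All 17 macrophage markers were also lowest in C2, with C1qb moving by -8.49 from C1 to C2 and by -0.54 from V1 to V2. Over the 4 libraries the centred log2 profiles of Abca1 and Lrp1 were the closest pair among the 9 (root-mean-square distance 0.15), followed by Apoe and Pltp (0.18), and Clu and Lpl were the farthest apart (1.998).

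**Figure D3:**
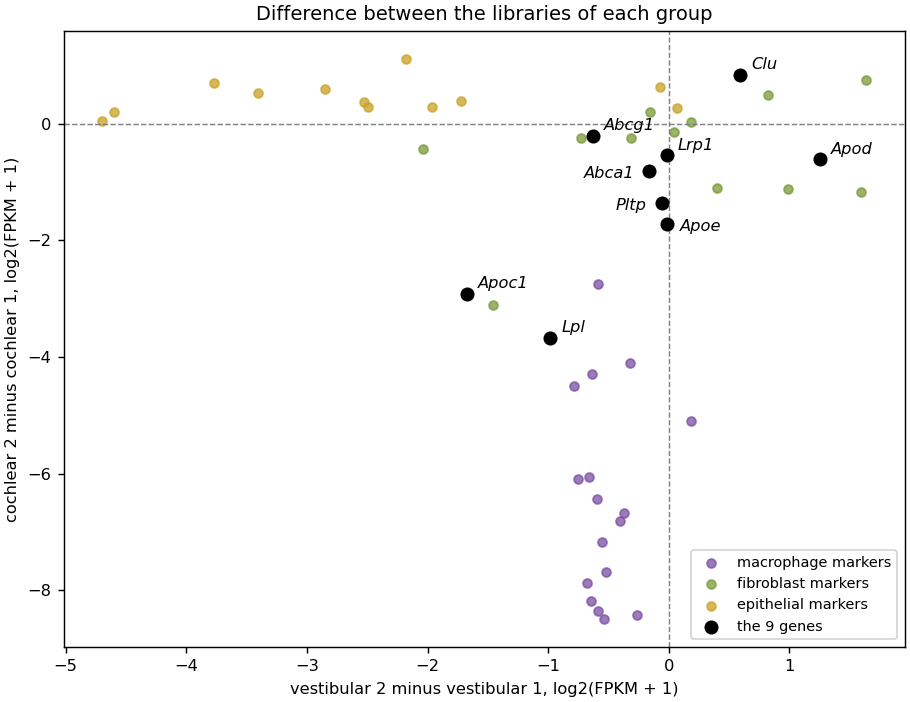
Each point is a gene, with the change from V1 to V2 on the x axis and from C1 to C2 on the y axis, both in log2(FPKM + 1), for the 9 genes and for macrophage, fibroblast and epithelial markers. All 17 macrophage markers lie below the horizontal zero line, where Lpl and Apoc1 lie lowest among the 9 genes, and Clu lies above that line.

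The genes with the profile most like a member were taken over 4 libraries from 7337 other genes with a mean of at least 10 FPKM, by root-mean-square distance of centred log2 values. For Apoe these were Mertk (0.08), a receptor for the engulfment of dying cells, Sesn1, Sh3bp5 and Hfe (0.14). For Pltp they were Hfe (0.08), Slc6a6, Emp3, Stom and Arhgdib (0.10). For Abca1 they were Mob3a (0.03), the ferritin light chain gene Ftl1, Camk1, Wwp1 and the purinergic receptor gene P2rx4 (0.04). For Lpl they were Lat2 (0.17), Atp6v0d2, the leukocyte integrin gene Itgb2, the fatty acid binding gene Fabp4 and Ctsc (0.32). For Apod they were Gng11 (0.04), Olfml1, Id2, Pde8a and the cathepsin gene Ctsk (0.13). For Clu they were the carbonic anhydrase gene Car2 (0.14), Pde5a, Vegfc, Hid1 and the growth factor gene Tgfb2 (0.17). These distances are a description over 4 libraries.

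Other genes of lipid transport were read from 6 lists, holding 118 distinct genes of which 95 were tested. Limma called 0 of the 95. At an unadjusted p under 0.05 9 were on the vestibular side and 9 on the cochlear side, where all genes tested had 7.61% and 10.6%.

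Sterol export and LXR genes had a median log2 difference of 0.36, against 0.01 over all genes tested. Of 21 tested, 8 were higher in vestibular and 1 in cochlear cultures at an unadjusted p under 0.05, against 7.61% and 10.6% of all genes tested. The vestibular pair was wholly above the cochlear pair in 11 of the 21 and wholly below it in 4, against 26.9% and 28.4%. The count of 8 fell when any library was left out, most without V2, while the share of all genes changed too. The list median was 0.55 without V1, 0.34 without V2, 0.48 without C1 and 0.12 without C2. Cyp27a1, which makes the LXR ligand 27-hydroxycholesterol, had 13.3 FPKM in V1, 18.7 in V2, 6.04 in C1 and 3.49 in C2 (log2 difference 1.58, limma adjusted p 0.175). Further transporters of the ABCA class, named after their values were seen, lay on both sides. Abca9 had 18.2 and 15.5 against 8.07 and 3.14 FPKM, Abca5 4.62 and 6.73 against 2.095 and 2.15, and Abca8b 3.28 and 4.67 against 0.866 and 1.54. Abca7 lay on the cochlear side, with 8.76 and 10.3 against 10.7 and 11.3 FPKM. Of the receptor genes, Nr1h2 (LXR beta) had 55.3 and 49.0 against 64.0 and 61.4 FPKM, and Nr1h3 (LXR alpha), named after its values were seen, 9.002 and 12.4 against 10.03 and 12.8. Npc2, which carries cholesterol out of lysosomes, had 143 and 126 against 123 and 88.2 FPKM. Nceh1, which frees cholesterol from its esters, was the largest on the cochlear side, with 20.2 and 14.1 against 31.2 and 24.7 FPKM.

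Lipoprotein receptors went both ways, with a median of 0.03 over 19 tested genes. The vestibular pair was wholly above the cochlear pair in 2 genes and wholly below it in 5, against 26.9% and 28.4% of all genes tested. Vldlr, a receptor for particles rich in triglyceride and for reelin, had 8.21 FPKM in V1, 6.94 in V2, 43.0 in C1 and 30.4 in C2. Both cochlear libraries were several-fold above both vestibular libraries (log2 difference -2.12, SE 0.22, limma adjusted p 0.0955). The sorting receptor gene Sorl1, named after its values were seen, had 21.5 and 14.6 against 52.0 and 55.3 FPKM (log2 difference -1.54, limma adjusted p 0.122). Lrpap1, the chaperone of Lrp1, had 98.2 and 133 against 93.8 and 107 FPKM. Lrp6, a WNT co-receptor, had 34.4 and 41.8 against 29.5 and 28.5 FPKM.

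Receptors known from macrophages had another pattern. Stab1 had 214, 129, 133 and 0.197 FPKM in V1, V2, C1 and C2, and Trem2, a lipid and apolipoprotein receptor, 172, 97.1, 130 and 0.306. The scavenger receptor genes Msr1 and Cd36, named after their values were seen, were highest in C1 instead of V1. Msr1 had 35.0, 17.1, 37.1 and 0.0263 FPKM in V1, V2, C1 and C2, and Cd36 14.9, 8.28, 36.9 and 0.113. Lrp1 itself had 115 FPKM in C2.

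**Figure D4:**
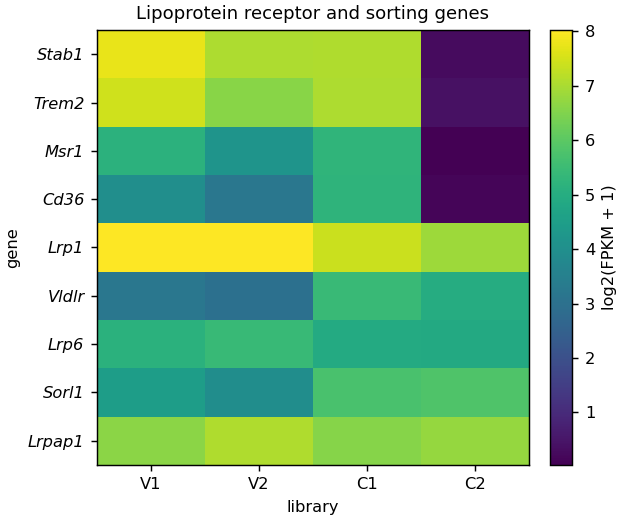
Log2(FPKM + 1), as colour, of Lrp1 and the lipoprotein receptor and sorting genes named in the text (rows) in the 4 libraries (columns), ordered by the change from C1 to C2. Stab1, Trem2, Msr1 and Cd36 are dark in C2, and Vldlr and Sorl1 are brighter in both cochlear libraries.

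Among other apolipoproteins 6 of 18 were tested. Apoc3, Saa1 and Saa2 were listed at 0 in every library, and Apoa1, Apoa5, Apob and Apoh, named after their values were seen, reached at most 0.193 FPKM. Saa3, an acute phase protein of high density lipoprotein, had 20.1 and 39.1 FPKM in the vestibular libraries, 11.7 in C1 and was listed at 0 in C2. Apoo and Apool, which encode mitochondrial membrane proteins despite their names, were both tested. Apoo had 14.6, 17.1, 14.4 and 17.8 FPKM in V1, V2, C1 and C2, and Apool 10.6, 10.6, 13.0 and 12.8.

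Genes of lipase control had a median difference of 0.03 over 10 tested genes. Lipa, the lysosomal acid lipase, had 125 FPKM in V1, 74.5 in V2, 73.0 in C1 and 11.3 in C2 (limma adjusted p 0.432). Pla2g7, a phospholipase carried on lipoproteins, had 129 and 78.0 against 216 and 164 FPKM, and Mgll, the monoglyceride lipase, 3.83 and 11.4 against 14.2 and 14.3. Gpihbp1, the anchor of lipoprotein lipase on endothelium, named after its values were seen, was listed at 0 in 3 libraries and had 0.320 FPKM in V2. The lysosomal membrane protein gene Glmp had 154 and 130 against 182 and 167 FPKM.

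Cholesterol synthesis genes lay in a narrow band. All 24 were tested, with differences from -0.59 to 0.18 and a median of -0.13, and the vestibular pair was wholly above the cochlear pair in 0 genes and wholly below it in 10, against 26.9% and 28.4% of all genes tested. Srebf2, the regulator of the pathway, had 26.2 and 36.9 FPKM against 33.6 and 31.0, and Fdps 27.4 and 32.1 against 32.9 and 33.5. Insig2, which retains the regulator in the endoplasmic reticulum, had 35.1 and 38.2 against 40.2 and 44.9 FPKM. Hsd17b7, a late enzyme of the pathway, had the largest estimate in this list, with 4.63 and 7.05 against 8.22 and 10.1 FPKM.

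In the list of fatty acid uptake and lipid droplets 15 genes were tested, with a median difference of 0.24. Acsl1, which activates long-chain fatty acids, had 15.98 FPKM in V1, 26.5 in V2, 41.8 in C1 and 49.4 in C2 (log2 difference -1.10, limma adjusted p 0.216). The droplet coat genes Plin2 and Plin3 overlapped between groups. Plin2 had 86.8, 50.9, 77.7 and 48.7 FPKM in V1, V2, C1 and C2, and Plin3 64.4, 55.5, 57.3 and 56.9. Fabp5, a fatty acid binding protein gene, had 193, 65.5, 144 and 19.0 FPKM in V1, V2, C1 and C2, the library order of Apoc1. Fabp7, its relative of glia, had 11.0 and 2.38 against 2.17 and 0.651 FPKM.

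**Figure D5:**
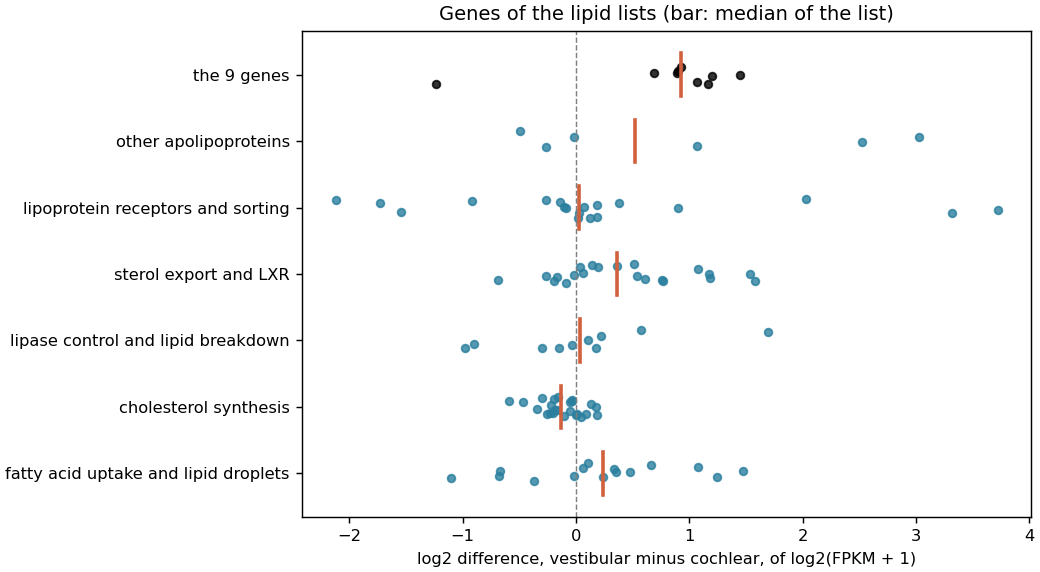
Log2 difference (vestibular minus cochlear, of log2(FPKM + 1)) of each tested gene, by list, with a bar at the list's median. The 9 genes have a median of 0.93 with Clu alone below 0, the sterol export list a median of 0.36, and the cholesterol synthesis genes lie between -0.59 and 0.18.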

How the data were processed

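RNA was measured in 4 samples, grouped by the cell type label. Per the labels' protocols, libraries were made with the TruSeq stranded mRNA kit. The authors deposited FPKM values, per the file headers, one per symbol and sample. The submitters' processing notes name Cuffdiff 2.2.1, TopHat2 2.1.1, SAMtools 0.1.18 and Bowtie2 2.2.8 with the mm10 build. Their settings, the annotation, use of strand and the scaling across libraries are unknown: not given in the sources used here. A value therefore depends on an unknown transcript model. FPKM totals were 479380 to 519122. Fragment numbers are not given. In short RNA genes, ratios between libraries were matched to 1 base ratio times fractions of small whole numbers (tolerance 0.1%). The base ratio with the most matches was kept for each pair of libraries, so the counts are maxima. They were 15 to 24 of 28 to 34 ratios, and by the base ratios the worth of 1 fragment ranged 1.16-fold over the libraries. Only base ratios within a window around 1 were admitted, and ties went to the ratio nearest 1. A much larger difference in depth could therefore not have been found.

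Genes with a mean of at least 1 FPKM (13200) were tested on log2(FPKM + 1) with limma 3.58.1 in R 4.3.3 (mean-variance trend, 2-sided, Benjamini-Hochberg over all genes tested, threshold 0.05, prior degrees of freedom 1.71). The smallest 2-sided exact permutation p for 2 against 2 is 0.333. The fit was tested on simulated data. The 9 genes and all lists (6 of lipid genes, 9 of cell type markers) were chosen with earlier results of these data known. Named genes were the 9, the 3 highest of each list, the largest separated difference per direction in each lipid list, and the 5 nearest profiles of 6 genes; some results are not reported here. Marker lists not described elsewhere summed to 92.1 to 215 FPKM (Schwann cell and glia), 11.5 to 233 (melanocyte), 0.899 to 33.1 (adipocyte), 220 to 4233 (chondrocyte), 10.3 to 20.0 (endothelial) and 24.2 to 37.9 (hair cell). Positions are from GENCODE M21 on GRCm38 (mm10), and promoters from RefSeq. Alternatives were another pseudocount (0.1), filter, scaling, variance model, a block on the sample number, and leaving out each library. The counts of list genes without each library were added after seeing the data.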

Additional observations from a re-analysis of the deposited data

How the results depend on the processing

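None of the 9 genes passed under any of the 10 alternatives. Their smallest limma adjusted p was 0.157, for Pltp without cochlear replicate 1. Of 9 directions, 7 held under all 10 alternatives. Without cochlear replicate 2 the difference of Apoc1 was -0.53 and that of Lpl -0.94, so both turned around. With each library left out in turn, the differences ran from 0.59 to 2.31 for Apoe, 0.54 to 1.79 for Apod, -0.53 to 2.39 for Apoc1, -1.66 to -0.82 for Clu, -0.94 to 2.73 for Lpl, 0.28 to 1.10 for Abca1, 0.76 to 1.39 for Abcg1, 0.62 to 1.16 for Lrp1 and 0.52 to 1.88 for Pltp.

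The number of genes called by limma over the whole table was 4, 2 with no filter on low values, 0 with the replicate block and 0 without any one library. An unadjusted limma p under 0.05 was reached by 2398 genes, by 2977 with no filter, by 1887 with the block and by 1018 to 2724 with a library left out. Whether the sample numbers pair the libraries was not settled. Vestibular 1 minus 2 had an r of 0.043 with cochlear 1 minus 2 across genes, and an r over all genes cannot exclude a pairing. With the replicate block the smallest limma adjusted p among the 9 genes was 0.292. The block lowered the limma adjusted p of Apoc1 from 0.706 to 0.391 and that of Lpl from 0.75 to 0.603, and raised it for the others of the 9. The list median of sterol export was 0.14 with a mean FPKM of at least 5, and 0.12 to 0.55 with each library left out. It was -0.27 to -0.018 for cholesterol synthesis and -0.0027 to 0.49 for fatty acid uptake. The cause of these shifts was not tested. With 2 libraries a group, the precision of a single gene rests on the spread limma shares across genes.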
